A study of Homo sapiens with 2 samples.

Results

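Toll-like receptors of the cell surface, the co-receptor CD14 and the adaptors and kinases that carry their signal were followed in the 786-O renal carcinoma line with and without SETD2. The set held 10 genes, chosen by symbol from the 23375 genes kept in the expression tables: the receptors TLR1, TLR2, TLR4, TLR5 and TLR6, the co-receptor CD14, the adaptors MYD88 and TIRAP, and the kinases IRAK1 and IRAK2. All 10 were found, and all 10 passed the minimum of 10 reads over both libraries. The set was proposed with their values known, so its ratios describe these libraries and support nothing beyond them.

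RNA was sequenced from 1 library of a 786-O line whose SETD2 had been knocked out with a zinc finger nuclease and from 1 library of the SETD2 wild-type 786-O line. 786-O is a long-established line from a clear cell kidney tumour and lacks functional VHL, which both lines share, and SETD2 is the enzyme that trimethylates H3K36 along transcribed genes. Both lines were grown in RPMI1640 with fetal bovine serum, and medium is the treatment the labels name, so no receptor ligand was added as far as they say. Whether the knockout line is a single clone is not given in the sources used here. The comparison asks which transcripts differed between these isogenic lines.

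The knockout library held 50670012 fragments in genes and the wild-type library 62304084. SETD2 itself was counted in 1404 fragments (27.0 CPM) in the knockout library and 4908 fragments (80.9 CPM) in the wild-type library, a ratio of 0.334 with a 95% counting interval of 0.314 to 0.354. CPM is the fragment count relative to the scaled library size, a ratio is knockout over wild type, and a gene is called higher or lower where its whole interval lies beyond 2-fold. With 1 library per line there is no replicate check and no p-value. Each ratio compares these libraries rather than the conditions, and every interval covers counting error only. Of 8 markers of renal carcinoma and tubular epithelium, 7 were tested and 0 called, beside 9.12% of all genes. Of the 7, 1 had a ratio above 1 and 6 had ratios below 1, with a median log2 ratio of -0.38. The renal transcription factor PAX8 was at 168 CPM in the knockout and 251 CPM in the wild-type library, and the kidney cadherin CDH6 was at 355 CPM in the knockout and 178 CPM in the wild-type library, a ratio of 1.99 (1.95 to 2.04) at the edge of the rule. CA9, a hypoxia-induced carbonic anhydrase, was not tested, with 0 knockout and 1 wild-type fragments.

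Toll-like receptors recognise conserved molecules of microbes. TLR2 pairs with TLR1 or TLR6 and binds bacterial lipopeptides, TLR5 binds flagellin, and TLR4 binds lipopolysaccharide together with its partner LY96 (also called MD-2), to which CD14 hands the ligand. The receptors recruit MYD88, for TLR2 and TLR4 through the bridging adaptor TIRAP, and MYD88 assembles the kinases IRAK4, IRAK1 and IRAK2, which lead through TRAF6 to the activation of NF-kB. Renal tubular epithelium is known to express several of these receptors, among them TLR2 and TLR4.

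The main differences lay at the receptors and not at the shared adaptor. In the knockout library TLR2 was nearly absent and TLR4 and CD14 were higher, whereas TLR1, TLR5, TLR6 and MYD88 had ratios between 1.03 and 1.39. Of the 10 genes, 2 were called higher, 1 was called lower and 7 were not called. Over all 16894 genes tested, 5.75% were called higher and 3.37% lower, or 9.12% in either direction. The median log2 ratio of the 10 genes was 0.06, against 0.02 over all genes tested. With a 1.5-fold rule, which called 10.4% of all genes higher and 9.17% lower, 2 members were called higher and 2 lower, IRAK1 being the one added.

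**Figure D1:**
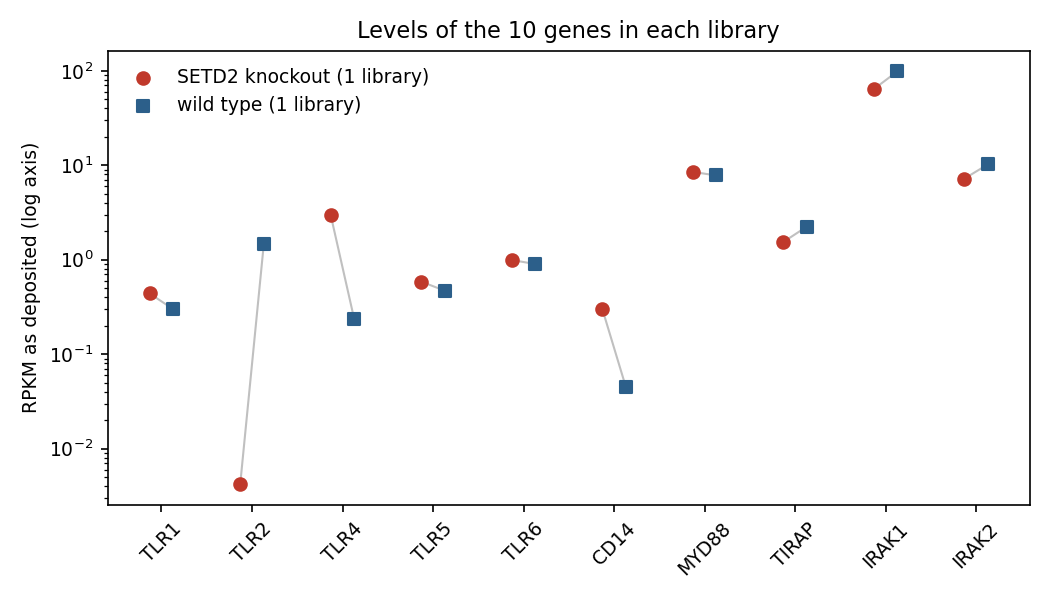
Deposited RPKM (log axis) of the 10 genes, with the knockout library as circles on the left of each gene and the wild-type library as squares on the right, 1 library each. TLR2 is at 0.00422 in the knockout and 1.45 in the wild-type library, TLR4 at 2.96 in the knockout and 0.234 in the wild-type library, and MYD88 at 8.51 in the knockout and 7.79 in the wild-type library.

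TLR2 (hg19 chromosome 4, 154605441 to 154627242) was counted in 1 fragment in the knockout library and in 422 in the wild-type library, or 0.0192 and 6.95 CPM. The ratio was 0.00276 with an interval of 6.98e-05 to 0.0155, or 362-fold lower (64.6-fold to 14324-fold). It was the 9th lowest log2 ratio of the 16894 genes tested. As these are bulk libraries, fewer expressing cells and less RNA per cell cannot be told apart. The nearest tested genes on either side were not called: KIAA0922, 47.6 kb away, had a ratio of 1.21 (interval 1.07 to 1.37), and SFRP2, 74.5 kb away, had 2 knockout and 7 wild-type fragments (ratio 0.333, interval 0.0338 to 1.75). The 50 nearest tested genes had a median log2 ratio of 0.02.

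TLR4 (hg19 chromosome 9, 120466453 to 120479769) was higher instead, with 1192 fragments in the knockout library and 116 in the wild-type library, or 22.9 and 1.91 CPM. The ratio was 12.0 with an interval of 9.90 to 14.6, the 391st highest of the genes tested. Its nearest tested neighbours differed from it and from each other: ASTN2, 289 kb away, had a ratio of 1.79 (interval 1.59 to 2.02), and DBC1, 1449 kb away, had 0.442 (0.386 to 0.504). The median log2 ratio of its 50 nearest tested genes was 0.33, while that of TLR4 was 3.58.

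CD14 (hg19 chromosome 5, 140011313 to 140013286) was counted in 38 fragments in the knockout library and 7 in the wild-type library, or 0.730 and 0.115 CPM. The ratio was 6.33 with a wide interval of 2.79 to 16.8, and the gene stayed below 1 CPM in both libraries. Relative to its 50 nearest tested genes the interval began at 1.94, which ends the call. Its neighbour TMCO6, 5.73 kb away, had a ratio of 0.814 (0.700 to 0.945). LY96, the TLR4 partner, is not among the 10 genes and was likewise called higher, with 362 and 109 fragments (6.96 and 1.80 CPM) in the knockout and wild-type libraries, a ratio of 3.87 (3.12 to 4.84). Its neighbour JPH1, 206 kb away, was called higher too, with 555 knockout and 52 wild-type fragments (ratio 12.4, interval 9.36 to 16.9), whereas TMEM70 on the other side, 8.55 kb away, had a ratio of 1.17 (1.10 to 1.24).

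TLR4, LY96 and CD14 act together in binding lipopolysaccharide, and their ratios were unequal. The lipopolysaccharide-binding protein LBP, which acts before CD14, had 17 knockout and 5 wild-type fragments (ratio 3.97, interval 1.40 to 13.7) and was not called. The LY96 ratio was 0.323 times the TLR4 ratio (interval 0.240 to 0.435), so that LY96 had 0.304 fragments per TLR4 fragment in the knockout library and 0.940 in the wild-type library. The ratios of TLR4 and CD14 could not be separated at this depth, as the ratio of TLR4 was 1.89 times that of CD14 with an interval of 0.697 to 4.42. Such ratios of ratios, computed for 13 pairs of genes, do not depend on how the libraries are scaled.

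**Figure D2:**
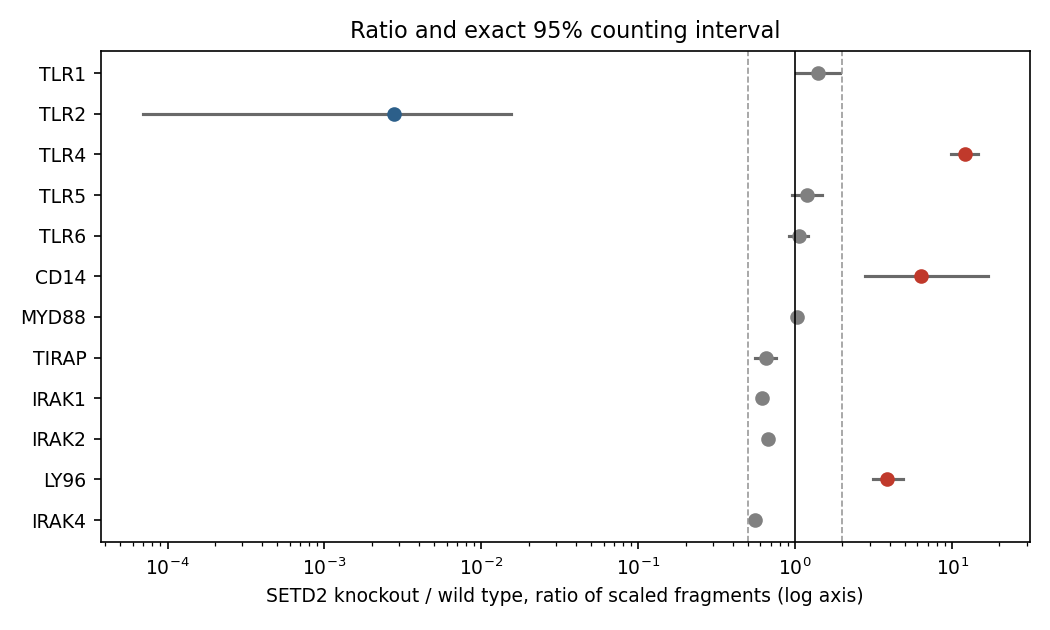
Ratio of scaled fragments, knockout over wild type (log axis), with exact 95% counting intervals, for the 10 genes and for LY96 and IRAK4. Dashed lines mark 2-fold, red points are called higher, blue lower and grey not called. TLR2 at 0.00276 and TLR4 at 12.0 lie far from the other receptors.

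The promoters of the called genes are shown so that the base composition at the genes with the largest differences can be seen. RefSeq promoter windows (GRCh38.p14) were matched for 8 of the 10 genes, and the 250 bases before each start site are used here, in lower case with CpG dinucleotides in capitals.
TLR2, chr4:153684030-153684279, plus strand: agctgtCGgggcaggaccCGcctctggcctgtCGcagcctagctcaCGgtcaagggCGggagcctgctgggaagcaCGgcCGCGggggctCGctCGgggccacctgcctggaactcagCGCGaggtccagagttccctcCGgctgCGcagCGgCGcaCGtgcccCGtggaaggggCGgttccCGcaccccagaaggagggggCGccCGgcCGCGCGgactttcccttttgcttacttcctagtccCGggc
TLR4, chr9:117704153-117704402, plus strand: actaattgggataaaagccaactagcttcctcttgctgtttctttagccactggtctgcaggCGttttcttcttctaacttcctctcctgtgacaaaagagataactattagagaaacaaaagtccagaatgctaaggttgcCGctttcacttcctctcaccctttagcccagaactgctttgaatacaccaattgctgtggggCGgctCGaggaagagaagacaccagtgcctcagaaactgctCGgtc
CD14, chr5:140633176-140633425, minus strand: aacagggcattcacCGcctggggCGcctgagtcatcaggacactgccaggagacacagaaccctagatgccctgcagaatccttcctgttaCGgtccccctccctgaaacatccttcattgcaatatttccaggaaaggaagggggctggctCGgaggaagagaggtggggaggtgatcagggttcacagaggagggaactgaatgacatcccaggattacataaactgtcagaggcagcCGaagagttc
The TLR2 window held 26 CpG and 72.4% G and C, more CpG than 80.4% of the 35116 promoters in the table. The TLR4 and CD14 windows held 5 CpG each, more than 34.3% of promoters. Whether the CpG count of a window bears on the ratio was not tested. The TLR6 window held 4 CpG and that gene had a ratio of 1.05, while the windows of TLR5 and MYD88 held 19 each, that of IRAK2 24 and that of IRAK1 43.

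Of 6 motifs searched on both strands, the PU.1 core GAGGAA, named for the myeloid transcription factor encoded by SPI1, occurred 4 times in the TLR4 window, at positions -224, -171, -99 and -40 from the start. At least 1 copy was present in 23.6% of all promoters and at least 4 in 0.0513%. The cut of 4 was taken from the TLR4 window itself, and such a share was worked out for this motif alone. The promoters were not matched for base composition (46.4% G and C in the TLR4 window, median 58.0%). The share is therefore no test of enrichment. The CD14 window held 1 copy, at -96, as did the windows of TLR6, at -195, and MYD88, at -18, which were not called. The windows of TLR2, TLR5, IRAK1 and IRAK2 held 0. SPI1 itself was counted in 1 fragment in the knockout library and 0 in the wild-type library. The Sp1 box GGGCGG was in 6 of the 8 windows, with 1 copy in TLR4, 2 in TLR2 and TLR5 and 4 in MYD88, IRAK1 and IRAK2, and in 42.6% of all promoters. The hypoxia-inducible factor core ACGTG was in the TLR2 window alone of the 8, as 2 matches that overlap on opposite strands, and in 18.5% of all promoters. The NF-kB consensus matched in the IRAK1 window and in 0 of the other 7, against 9.96% of all promoters. The AP-1 motif TGANTCA matched once in the CD14 window (6.57% of all promoters) and the TATA box TATAAA in 0 of the 8 (10.7%). These matches describe letters in these windows and show no binding.

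The other receptors of the cell surface had ratios near 1. TLR6 (hg19 chromosome 4, 38825329 to 38858438), a TLR2 partner, was counted in 407 and 454 fragments (7.82 and 7.48 CPM) in the knockout and wild-type libraries, a ratio of 1.05 (interval 0.912 to 1.20). TLR5 (hg19 chromosome 1, 223282748 to 223316624) was counted in 174 knockout and 172 wild-type fragments (3.34 and 2.83 CPM), a ratio of 1.18 (0.950 to 1.47). TLR1 (hg19 chromosome 4, 38797876 to 38806412), the other TLR2 partner, was counted in 87 knockout and 73 wild-type fragments (1.67 and 1.20 CPM), a ratio of 1.39 (1.01 to 1.92). Of these intervals, that of TLR1 alone excluded 1, and by little. TLR1 and TLR6 lie 18.9 kb apart and share sequence: 4.33% of the 100-base windows of the TLR1 transcript and 2.06% of those of TLR6 also occur in the other gene. Reads from these stretches may have been given to the wrong gene or left uncounted. Of the other members, TLR4 shares 3.23% of its 100-base windows (412 of 12754) with the transcript AL160272.2, which GENCODE lists, and the rest share 0. The longest transcript of TLR4 exceeds the 5781 bases listed for its row, so the share of the counted length may differ. Windows were compared on the same strand only, so antisense overlap is not seen. In 50-base windows, the shares found in any other gene were 8.50% for TLR1, 5.23% for TLR6 and 3.61% for TLR4. For the rest they were at most 0.819%, the value of TLR2. The ratios of TLR1 and TLR6 could not be separated (TLR1 over TLR6 1.33, interval 0.934 to 1.89).

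By fragments, TLR4 was the most frequent of the 5 receptors in the knockout library and the second least frequent in the wild-type library, and per length the least. TLR4 made up 64.1% of the 1861 receptor fragments in the knockout library (exact binomial interval 61.8% to 66.2%) and 9.38% of the 1237 in the wild-type library (7.81% to 11.1%). TLR2 made up 0.0537% (0.00136% to 0.299%) in the knockout and 34.1% (31.5% to 36.8%) in the wild-type library. TLR6, the most frequent by fragments in the wild-type library, made up 21.9% and 36.7% in the knockout and wild-type libraries. Summed per length, the 5 receptors came to 4.99 RPKM in the knockout library and 3.35 RPKM in the wild-type library. TLR4 accounted for 59.4% of that sum in the knockout and 6.99% in the wild-type library.

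**Figure D3:**
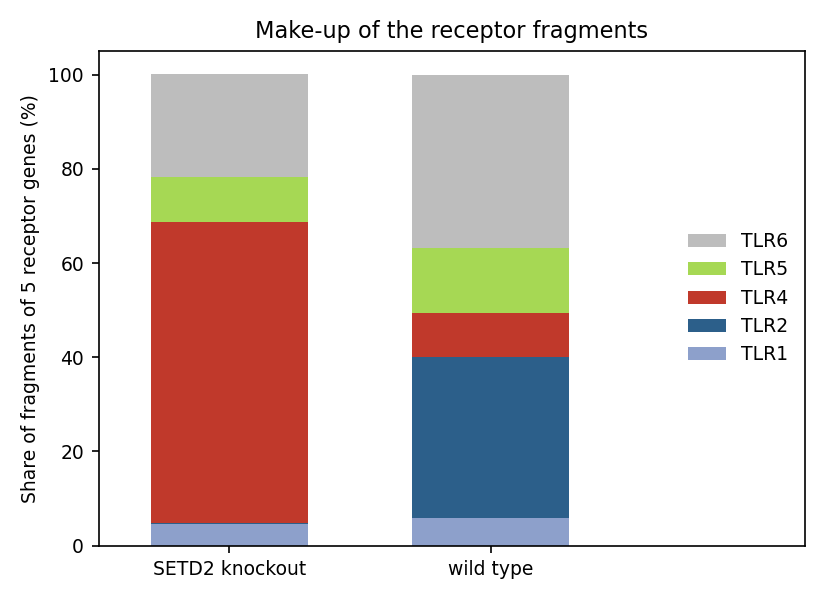
Share of the fragments of 5 receptor genes (%), stacked by gene, in the knockout library (left, 1861 fragments) and the wild-type library (right, 1237 fragments). TLR4 makes up 64.1% of the left bar and 9.38% of the right bar, and TLR2 0.0537% and 34.1%.

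MYD88 (hg19 chromosome 3, 38179969 to 38184512), the adaptor shared by these receptors and by much of the interleukin-1 receptor family, was close to equal. It was counted in 1701 and 1919 fragments (32.7 and 31.6 CPM) in the knockout and wild-type libraries, a ratio of 1.03 with an interval of 0.968 to 1.10. TIRAP, IRAK2 and IRAK1, and IRAK4 outside the set, had lower ratios, none of which passed 2-fold. TIRAP (hg19 chromosome 11, 126152982 to 126164828), the bridge from TLR2 and TLR4 to MYD88, was counted in 266 knockout and 478 wild-type fragments (5.11 and 7.88 CPM), a ratio of 0.649 (0.557 to 0.756). IRAK2 (hg19 chromosome 3, 10206563 to 10285427) was counted in 1740 knockout and 3042 wild-type fragments (33.4 and 50.1 CPM), a ratio of 0.667 (0.629 to 0.708). IRAK1 (hg19 chromosome X, 153275957 to 153285342), by far the most abundant of the set, was counted in 15871 knockout and 30156 wild-type fragments (305 and 497 CPM), a ratio of 0.614 (0.602 to 0.626). IRAK4, the kinase that acts before IRAK1 and IRAK2, was counted in 894 knockout and 1889 wild-type fragments, a ratio of 0.552 (0.509 to 0.598). TRAF6, to which these kinases lead, went the other way. It was counted in 1083 knockout and 1035 wild-type fragments, a ratio of 1.22 (1.12 to 1.33), and was not called. IRAK4 and TRAF6 are named here after their values were seen.

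Against MYD88 within the same libraries, IRAK1, IRAK2 and TIRAP were lower beyond counting error. The ratio of IRAK1 was 0.594 times that of MYD88 (interval 0.554 to 0.636), that of IRAK2 0.645 times (0.590 to 0.705) and that of TIRAP 0.628 times (0.531 to 0.741). TIRAP and IRAK1 could not be separated from each other (1.06, interval 0.906 to 1.23). Genes around some of them had lower ratios too. The 50 nearest tested genes had a median log2 ratio of -0.38 around IRAK1, -0.48 around IRAK4 and -0.22 around TIRAP, but 0.03 around IRAK2. Relative to these medians the log2 ratios were -0.32 for IRAK1, -0.38 for IRAK4, -0.40 for TIRAP and -0.61 for IRAK2. IRAK2 lies 11.2 kb from VHL, which had a ratio of 1.08 (1.04 to 1.13).

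Per length, the kinases and MYD88 stood above the receptors in both libraries. In the knockout library the order by RPKM was IRAK1 (63.9), MYD88 (8.51), IRAK2 (7.21), TLR4 (2.96), TIRAP (1.54), TLR6 (0.994), TLR5 (0.586), TLR1 (0.439), CD14 (0.302) and TLR2 (0.00422). In the wild-type library it was IRAK1 (98.5), IRAK2 (10.2), MYD88 (7.79), TIRAP (2.24), TLR2 (1.45), TLR6 (0.899), TLR5 (0.470), TLR1 (0.299), TLR4 (0.234) and CD14 (0.0452). TLR4 ranked 4th of 10 in the knockout and 9th in the wild-type library, and TLR2 ranked 10th in the knockout and 5th in the wild-type library. There is no replicate spread to judge the order by. By counting error alone, the RPKM intervals of TLR1 overlapped those of its neighbours TLR5 and CD14 in the knockout library and that of TLR4 in the wild-type library, and no other neighbours overlapped. IRAK1 exceeded 96.7% of all genes in RPKM in the knockout library and 98.0% in the wild-type library, and TLR4 exceeded 61.8% in the knockout and 44.1% in the wild-type library.

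Receptor genes outside the set were mostly near 0. TLR3, an endosomal receptor of double-stranded RNA, was the exception among TLR3, TLR7, TLR8, TLR9 and TLR10, with 585 and 379 fragments (11.2 and 6.25 CPM) in the knockout and wild-type libraries and a ratio of 1.80 (interval 1.58 to 2.05). It was not called, and the median log2 ratio of its 50 nearest tested genes was 0.70, against 0.85 for TLR3 itself. TLR9, which binds unmethylated CpG DNA, had 7 knockout and 2 wild-type fragments. TLR8 had 0 in both libraries, which allows up to 0.0577 CPM in the knockout and 0.0494 CPM in the wild-type library. Of these 5 genes, 4 were tested and 0 called, beside 9.12% of all genes. Their median log2 ratio of 1.33 rests largely on genes with few fragments. TLR7 had 3 knockout and 2 wild-type fragments (interval 0.200 to 20.9), TLR10 had 4 and 1 (0.462 to 230), and the interval of TLR9 was 0.777 to 40.3. Of 8 accessory proteins, 6 were tested, 1 was called higher (LY96) and 0 lower. The shares over all genes were 5.75% called higher and 3.37% called lower. Of the 6, 3 had ratios above 1 and 3 below, with a median log2 ratio of 0.43. Above 1 were LY96, the lipopolysaccharide-binding protein LBP and CD36 (1.94, interval 0.640 to 6.51). Below 1 were the endosomal chaperone UNC93B1 (0.963, 0.900 to 1.03), CNPY3 (0.966, 0.910 to 1.03) and HSP90B1 (0.658, 0.651 to 0.665).

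Of 23 downstream adaptors, kinases and ubiquitin ligases, all tested, 1 was called lower, 0 were called higher and the median log2 ratio was -0.10. That is 4.35% called, against 9.12% of all genes. Ratios were above 1 for 9 of the 23 and below 1 for 14. The called gene was IKBKE, a kinase related to TBK1, with 873 and 2633 fragments (16.8 and 43.4 CPM) in the knockout and wild-type libraries and a ratio of 0.387 (0.358 to 0.418). Relative to its 50 nearest tested genes, whose median log2 ratio was -0.51, its log2 ratio was -0.86 and it was not called. Of 9 negative regulators, 8 were tested and 0 called, with a median of -0.09. The most abundant of them were TNIP1, which restrains NF-kB signalling, with a ratio of 0.660 (0.649 to 0.672), and the ubiquitin ligase RNF216, with 1.08 (1.04 to 1.12). IRAK3, a kinase-like inhibitor of the complex, had 0 fragments in both libraries.

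Much of the interleukin-1 receptor family, though not every member, also signals through MYD88. Of 6 receptors of the family, 5 were tested, of which 1 was called lower and 4 were not called. The median log2 ratio was -1.07, and 3.37% of all genes were called lower. The ratios of the 4 were also below 1, but the interval of IL18RAP, an interleukin-18 receptor chain, was 0.342 to 1.71. IL1R1, the receptor of interleukin-1, was counted in 1412 and 4152 fragments (27.1 and 68.4 CPM) in the knockout and wild-type libraries, a ratio of 0.397 (0.373 to 0.421). Of 19 NF-kB target genes, 18 were tested, of which 10 (55.6%) were called lower and 0 higher, with a median of -1.38. The cytokine TNF had 8 knockout and 386 wild-type fragments (ratio 0.0242, interval 0.0104 to 0.0481), and the chemokine CCL2 had 69 knockout and 1706 wild-type fragments (0.0472, 0.0365 to 0.0600). The chemokines CCL20 and CXCL1 had ratios of 0.0463 (0.0297 to 0.0690) and 0.0614 (0.0429 to 0.0855). These lower genes stood beside higher TLR4, LY96 and CD14, a nearly absent TLR2 and a MYD88 ratio of 1.03, and whether any of these bears on another was not tested.

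**Figure D4:**
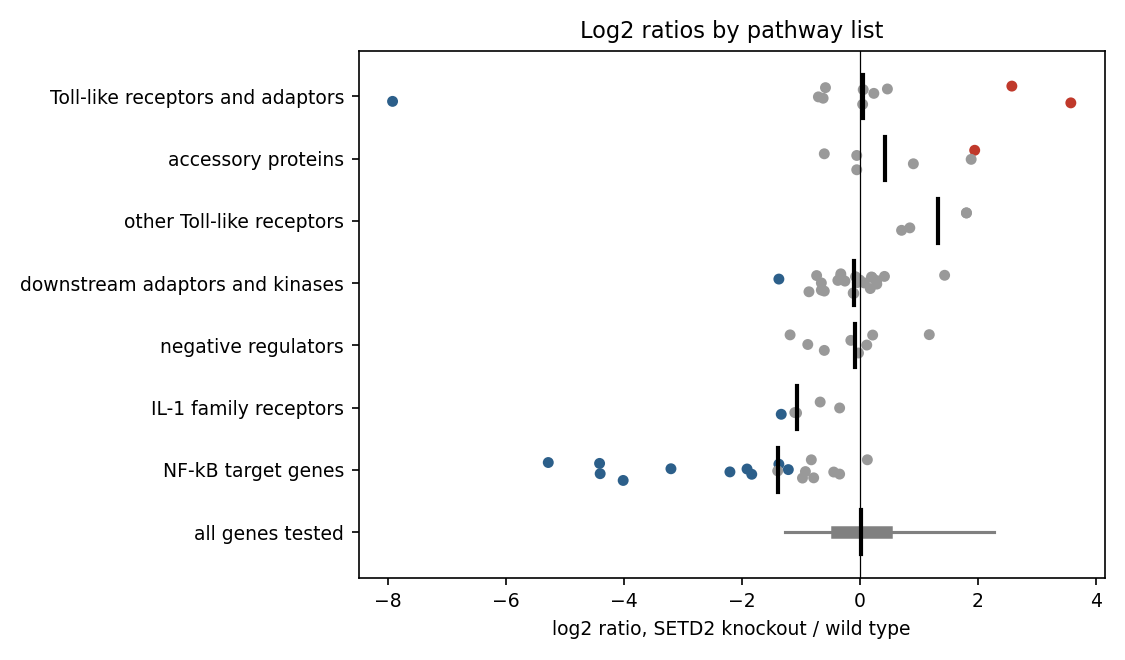
Log2 ratio, knockout over wild type, of each tested gene in 7 lists (points, red called higher, blue called lower, grey not called), with the median of each list as a black line. The bar for all 16894 genes spans the middle of the distribution from -0.38 to 0.45 and its thin line runs from the 5th to the 95th percentile, -1.27 to 2.27. The NF-kB targets have a median of -1.38 and the 10 receptor and adaptor genes a median of 0.06.

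CD14 and TLR4 are best known from monocytes and macrophages, and 11 leukocyte markers were read beside them. Summed, these markers came to 42.6 CPM in the knockout and 42.9 CPM in the wild-type library, of which CD68, a lysosomal protein that other cells also express, made up 39.6 CPM in the knockout and 38.6 CPM in the wild-type library. Of the 11, 8 were below 1 CPM in both libraries, 3 had 0 fragments in the knockout library and 4 in the wild-type library. PTPRC, the pan-leukocyte marker CD45, had 1 knockout and 2 wild-type fragments, and TYROBP, AIF1 and CD3E had 0 in both. CSF1R, a macrophage growth factor receptor, had 68 knockout and 198 wild-type fragments (1.31 and 3.26 CPM, ratio 0.401, interval 0.300 to 0.530). ITGAM had 61 knockout and 45 wild-type fragments (ratio 1.58, interval 1.06 to 2.38). FCER1G had 11 knockout and 4 wild-type fragments (3.21, 0.950 to 13.8) and LYZ had 10 and 7 (1.67, 0.573 to 5.16). Of the 5 markers tested, 4 had ratios above 1 and 1 below, and 0 were called, beside 9.12% of all genes. The part of leukocyte transcripts in the TLR4 and CD14 values was not tested.

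**Figure D5:**
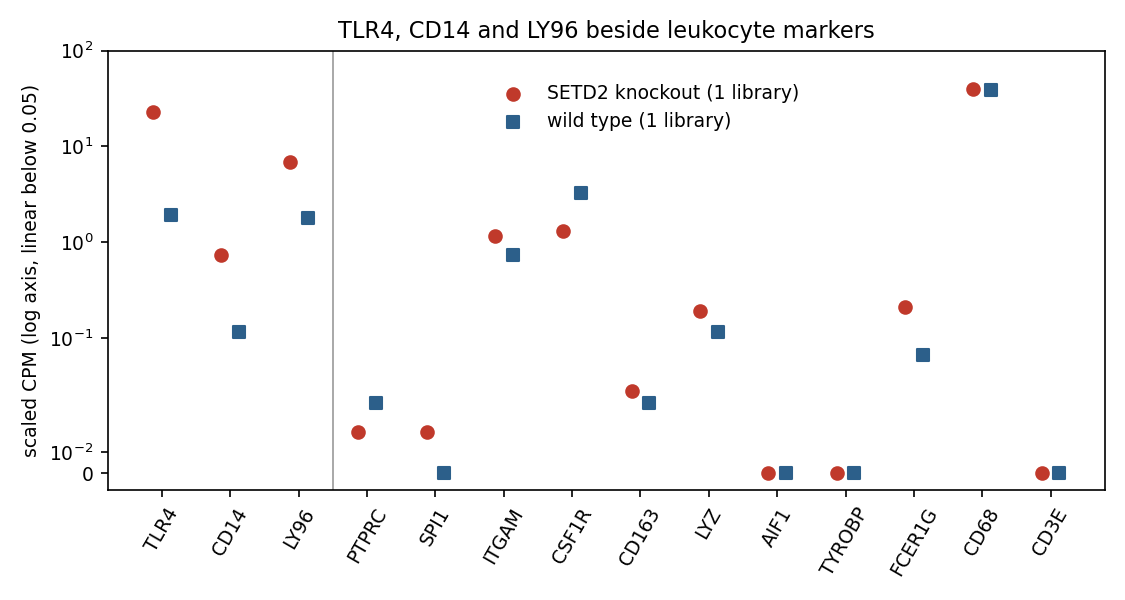
Scaled CPM (log axis, linear below 0.05) of TLR4, CD14 and LY96, left of the vertical line, and of 11 leukocyte markers, right of it, with the knockout library as circles and the wild-type library as squares. TLR4 is at 22.9 CPM in the knockout and 1.91 CPM in the wild-type library, while TYROBP, AIF1 and CD3E are at 0 in both libraries and CD68 is at 39.6 CPM in the knockout and 38.6 CPM in the wild-type library.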

How the data were processed

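Each library came as a table of 23398 rows in which the authors deposited raw read counts and RPKM values, per the file headers. The submitters' processing notes name hg19, TopHat2 2.0.6, Bowtie and HTSeq. Strand use in counting and the annotation release are not stated there, so reads of overlapping genes cannot be told apart. RefSeq lists genes that overlap TLR2 (RNF175), TLR4 (RNU6-1082P), TLR6 (FAM114A1 and MIR574), CD14 (TMCO6), IRAK2 (LOC124906338) and TIRAP (TIRAP-AS1), while no row of the tables overlaps the 10 genes. The deposited RPKM was the count over the listed length and over 1 total per table, of which the counts made up 72.9% in the knockout and 72.7% in the wild-type table.

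All deposited counts were even, so they were divided by 2 to give fragments. That each fragment counts as 2 reads is inferred from these values alone. Y rows of genes that also have an X row were dropped, which left 23375 rows. TMM scaling (edgeR 4.0.16, R 4.3.3) used the 16894 genes that had 10 or more reads in both libraries combined. Each ratio of scaled fragments carries an exact conditional 95% interval (Clopper-Pearson, SciPy 1.17.1), and log2 ratios used 0.5 added fragments. Differences between members were ratios of ratios with exact conditional intervals. RPKM intervals were exact Poisson intervals of the fragments. The floor for a count of 0 was 3 fragments. Shared sequence was counted in 50-base and 100-base windows of the longest GENCODE 29 transcript of each gene. Read length is not given in the sources used here. Promoters came from RefSeq. The calling rule was tested on simulated data that held counting error only, which cannot show how much libraries of the same line differ.

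The members and gene lists were chosen with earlier results of these data known, and 1 leukocyte marker is not reported here. All 10 members and SETD2 are named, and from each pathway list up to 4 called genes, ranked by the interval bound nearest to 1, or else the 2 most abundant. Other genes, such as IRAK4, were named after their values were seen, as were the pairs, motifs and promoters. The alternatives tried were scaling by total count or upper quartile, DESeq2 1.42.0 size factors, a 99% interval, a minimum of 1 or of 50 reads, 2-fold without an interval, a 1.5-fold rule, undivided counts, the ratio relative to the 50 nearest tested genes, the deposited RPKM and, for the order of levels, CPM per row span.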

Additional observations from a re-analysis of the deposited data

How the results depend on the processing

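Of 282 alternative values, 253 stayed within the counting interval of the value or within 1.5 times the count, and 29 moved. The ratio of TLR2 ranged from 0.00272 to 0.00292, that of CD14 from 4.39 to 6.69 and that of MYD88 from 1.01 to 1.09. All 10 members kept their call under each alternative that gives an interval or a call, other than the 1.5-fold rule and the ratio relative to the 50 nearest tested genes, under each of which 9 did. RPKM gives a ratio without a call.

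Relative to the 50 nearest tested genes, the ratios were 9.54 for TLR4, 0.801 for IRAK1 and 0.354 for SETD2, and 1 of the 10 members was called higher, since CD14 was not. Under that setting 0 downstream genes, 1 negative regulator, 3 interleukin-1 family receptors and 11 NF-kB target genes were called lower. Of all 16873 genes tested under it, 933 were called higher and 442 lower. IRAK1 had ratios of 0.647 with total count scaling, 0.646 with upper quartile scaling and 0.649 by RPKM.

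With the interval beyond 1.5-fold, 2 members were called lower (TLR2 and IRAK1), against 9.17% of all genes, and 1756 genes were called higher and 1550 lower in all. The same rule called lower 1 accessory protein, 3 downstream genes, 2 negative regulators, 3 interleukin-1 family receptors and 14 NF-kB target genes. It called higher 1 accessory protein, 1 other Toll-like receptor and 1 negative regulator. With 2-fold and no interval, 2278 of the 16894 genes tested were higher and 1316 lower. Higher among the lists were 2 accessory proteins, 2 other Toll-like receptors, 1 downstream gene and 1 negative regulator. Lower were 1 downstream gene, 1 negative regulator, 3 interleukin-1 family receptors and 11 NF-kB target genes. These rules ask for less, which raises the counts by construction.

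By CPM per row span, introns included, 4 of 10 members kept their RPKM rank in the knockout library and 5 in the wild-type library. Leaving out a replicate was not possible with 1 library per line. No paired analysis was possible because each line has 1 library. Depth limits CD14, with 7 wild-type fragments, and TLR2, with 1 knockout fragment.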
